A study of Homo sapiens with 5 samples.

Results

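Cytosolic ribosomal protein genes are the genes whose products, with ribosomal RNA, make up the large and small subunits of the ribosome outside mitochondria. They were chosen by gene symbol alone: RPL or RPS and a number, with A, L, AL or X allowed at the end, or RPSA, RPLP0, RPLP1 or RPLP2. S6 kinases, RPS4Y and pseudogenes were left out. The platform annotation gave such a symbol to 121 probes of 73 genes, 47 of the large and 26 of the small subunit, among 20041 named genes on the array. Genes that fit the rule but have no probe in the annotation used were not analysed here. The cells were of H1, a widely used line of human embryonic stem cells, and were differentiated through mesoderm with CHIR99021, a GSK3 inhibitor that activates WNT signaling, on matrigel. From day 2 to day 5 they received IWP2, which blocks WNT secretion, LY294002, an inhibitor of PI3K and also of mTOR, both inhibitors (IWP2+LY294002), or insulin (INS). Control cells (Ctrl) had basal differentiation medium, and all cells, each with the CHIR99021 induction, were taken on day 10. Each of the 5 conditions has 1 array. No replicate spread exists to hold a difference against, and no test was possible.

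Ribosomal proteins are made in matched amounts, one copy of most of them per ribosome. Their messenger RNAs begin with a terminal oligopyrimidine (TOP) tract, a C followed by more C and T (U in the RNA), through which mTOR, acting downstream of insulin and PI3K, controls how strongly they are translated. That control acts mostly on translation, while the arrays measured RNA. In heart and skeletal muscle RPL3L can take the place of RPL3, and other members such as RPS27L and RPL39L are paralogs of a core protein.

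The tract was looked for in the RefSeq start sites (GRCh38.p14) of the members, since they share it without its having been used to choose them. A match was a C and at least 4 more bases that are C or T, on the transcribed strand only, beginning within 5 bases of the annotated start. It was found for 50 of the 61 members with a listed start (82.0%), against 6447 of all 27305 genes listed (23.6%). Windows of 30 bases centred on the start are shown for 8 members that the results below turn on, with the matched run in capitals and the start after the first 15 bases.
RPS6, chr9:19380222-19380251, minus strand: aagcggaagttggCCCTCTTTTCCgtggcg
RPL27A, chr11:8682777-8682806, plus strand: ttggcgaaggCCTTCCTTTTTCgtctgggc
RPL28, chr19:55385917-55385946, plus strand: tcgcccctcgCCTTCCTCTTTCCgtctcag
RPL22, chr1:6199581-6199610, minus strand: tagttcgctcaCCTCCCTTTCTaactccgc
RPS25, chr11:119018329-119018358, minus strand: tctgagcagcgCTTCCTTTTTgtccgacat
RPL4, chr15:66504841-66504870, minus strand: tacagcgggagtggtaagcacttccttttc
RPS4X, chrX:72277234-72277263, minus strand: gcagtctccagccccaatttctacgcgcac
RPS27L, chr15:63157463-63157492, minus strand: aagttgatgccgagcgcagatcgcttgcag
The first 5 windows hold a match of 10 to 13 bases, and the windows of RPL4, RPS4X and RPS27L hold none within 5 bases of the annotated start. The RPL4 window does hold such a run (cttccttttc) that begins just past this limit. Its lack of a match thus rests on the limit and the annotated start. These matches describe the reference sequence only, and no promoter or translation was measured.

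Ribosomal protein RNA gave strong signals on every array. The probe with the highest mean was used for each gene, and 68 of the 73 genes (93.2%) were detected on all 5 arrays (detection p-value under 0.01), against 35.5% of all named genes. Of the 711 genes in the brightest 10% of those detected throughout, 56 were members. The summed background-corrected signal of the member probes took 6.89% of all signal with IWP2, 8.50% with LY294002, 6.79% with both inhibitors, 6.80% with insulin and 7.60% in the control. The LY294002 array, which had the highest share, was also the dimmest, with a median intensity of 106.9 against 114.1 to 118.2 on the others. As each probe has its own brightness, levels are compared only for 1 probe between arrays.

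The embryonic stem cell label describes the line rather than the cells at harvest. Of 9 pluripotency genes on the array, POU5F1 and NANOG were not detected on any array and SOX2 was detected with both inhibitors only. LIN28A, LIN28B, SALL4 and DNMT3B were detected on all 5, and DPPA4 and ZFP42 on 4 each. In the control DPPA4 read 7.98 and ZFP42 8.52. Cell type marker signals differed strongly between the 3 inhibitor arrays and the other arrays. The 20 cardiomyocyte markers had summed normalized signals (linear scale) of 72658 with IWP2, 63454 with LY294002, 72801 with both and 14618 with insulin, against 22710 in the control. The 18 endoderm and liver markers summed to 31402, 7055 and 2060 on the 3 inhibitor arrays in that order and to 122625 with insulin, against 111388 in the control. The number of these markers detected ran from 11 (insulin) to 18 (IWP2) of 20 for cardiomyocytes and from 8 (both inhibitors) to 17 (insulin and control) of 18 for liver. Fibroblast and matrix markers (12 genes) summed to between 2002 and 8878 on the inhibitor arrays and to 32126 with insulin, against 32916 in the control. The 21 proliferation markers had median differences from the control of -0.24 with IWP2, -0.11 with LY294002, -1.12 with both and -0.04 with insulin. Their part in the differences given here was not tested, and in bulk RNA fewer cells of a type and less RNA per cell cannot be told apart.

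Against that background, the ribosomal protein genes as a group differed little between conditions. The median difference from the control over the 68 members was -0.11 with IWP2, 0.03 with LY294002, -0.12 with both inhibitors and -0.15 with insulin, all on the log2 scale. The LY294002 median depended on the scaling, with 0.42 when arrays were scaled on the median of genes outside the list, or 0.28 above the median of all genes. Under 75th percentile scaling it was 0.19, also 0.28 above the median of all genes. The same medians over all genes detected on both arrays were 0.00, 0.02, 0.06 and 0.00. Between its lowest and highest array, the middle member spanned 0.61 on the log2 scale, with a range from 0.10 (RPS29) to 1.53 (RPL13). The middle gene of all 7110 detected throughout spanned 1.03.

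With IWP2, 2 members were at least 1.5-fold higher than the control and 8 at least 1.5-fold lower, or 2.94% and 11.8% of the 68, where 17.6% and 18.3% of all genes were. With LY294002, 6 were higher (8.82%) and 2 lower (2.94%), beside 21.4% and 21.2% of all genes. With both inhibitors, 2 were higher (2.94%) and 8 lower (11.8%), beside 25.1% and 21.3% of all genes. With insulin, 2 were higher (2.94%) and 3 lower (4.41%), beside 9.39% and 9.25%. In each comparison and each direction the members' share thus lay below that of all genes. Exceptions among the settings tried were 7 of 68 lower with IWP2 without background correction (10.0% of all genes) and 22 of 68 higher with LY294002 under the median scaling given below (25.6% of all genes). A difference of 2-fold or more was read for RPL13 with IWP2 (lower) and for RPL28 with insulin (higher), and for no member with LY294002 or both inhibitors. These counts also moved with the processing: 5 members were 2-fold higher with LY294002 under the median scaling and 1 under 75th percentile scaling, 1 with both inhibitors under 75th percentile scaling, and 0 with insulin without background correction. The 2-fold mark was passed upward by 6.94% of all genes and downward by 7.7% with IWP2, 9.02% and 10.2% with LY294002, 12% and 10.9% with both, and 1.71% and 1.88% with insulin. In all, 24 of the 68 members passed 1.5-fold in at least 1 of the 4 comparisons and 44 in none. The matching share of all genes is not given here, so these 2 counts cannot be called many or few. The balance of higher and lower counts turned with the scaling. Cyclic loess gave 5 higher and 3 lower with LY294002 and 2 and 0 with insulin. Scaling each array on the median of the genes outside the list gave 22 and 1 with LY294002 (25.6% and 17.8% of all genes). It gave 1 and 10 with both inhibitors (24.9% and 21.7%), and 1 and 4 with insulin (9.24% and 9.98%).

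**Figure D1:**
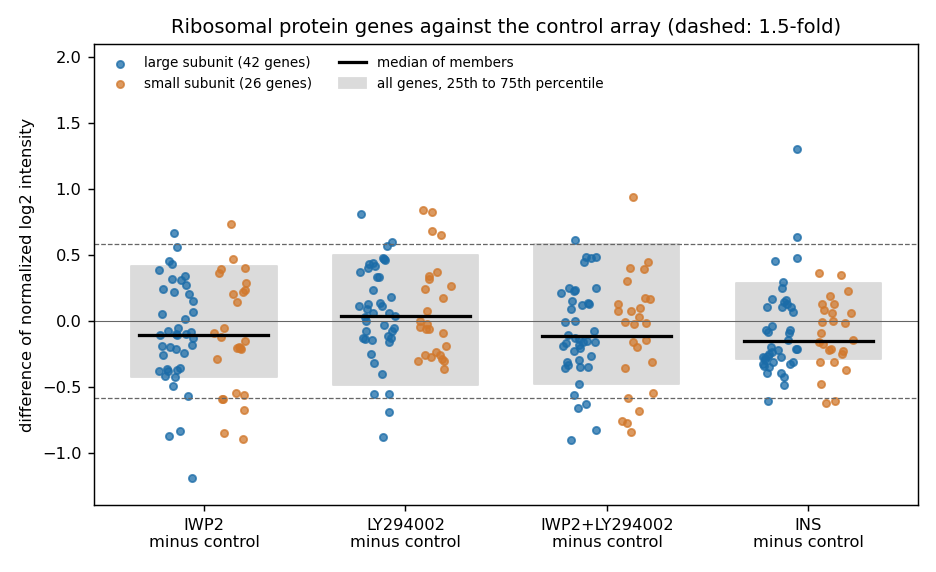
Difference of normalized log2 intensity from the control array for each of the 68 ribosomal protein genes detected on all 5 arrays, by subunit, with 1 array per condition. Black lines mark the member medians (-0.11, 0.03, -0.12 and -0.15), grey boxes the middle part of all genes from the 25th to the 75th percentile, and dashed lines 1.5-fold; most members lie between the dashed lines in every comparison.

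**Figure D2:**
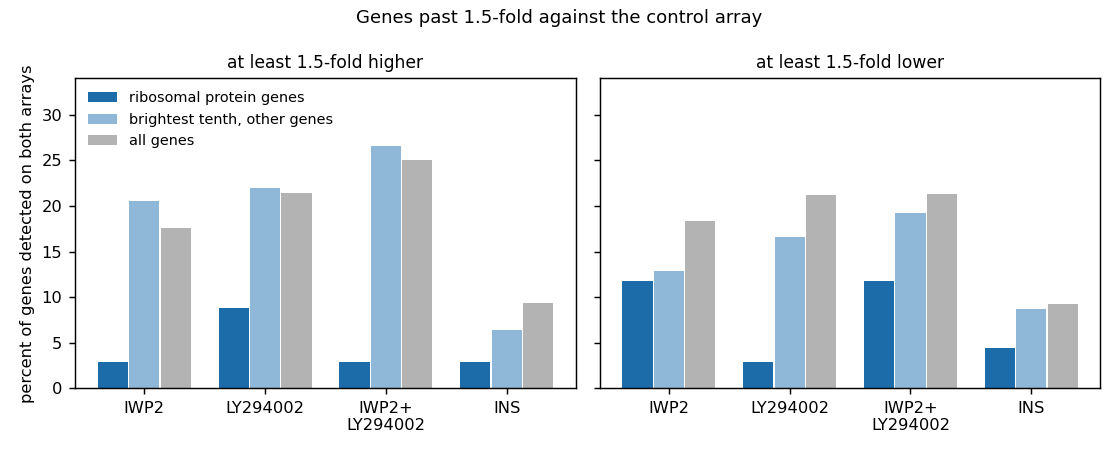
Percent of genes detected on both arrays that read at least 1.5-fold higher (left) or lower (right) than the control array. Ribosomal protein genes (2.94% to 11.8%) lie below all genes (9.25% to 25.1%) and below the other genes of the brightest 10% in all 4 comparisons.

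The medians of the subunits lay close to each other. The 42 detected large subunit genes had median differences of -0.10, 0.06, -0.14 and -0.21 with IWP2, LY294002, both inhibitors and insulin, and the 26 small subunit genes of -0.14, -0.04, -0.01 and -0.12. Members with a TOP tract match (47 detected) had medians of -0.12, -0.03, -0.14 and -0.14 in the same order. The 10 detected members without one had -0.10, 0.11, -0.06 and -0.13. RPL4, with a run just past the search limit, was counted among the latter.

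IWP2 compared with the control. RPL13, a large subunit protein, had the lowest difference from the control of any member. It read 8.52 on the log2 scale with IWP2, 10.05 with LY294002, 9.23 with both, 9.40 with insulin and 9.71 in the control, so that the IWP2 array stood lowest and was 2.29-fold below the control. RPS21, a small subunit protein, was 1.86-fold lower (7.66 with IWP2, 8.56 in the control). RPL13A, known for a second role in repressing inflammatory messages once it leaves the ribosome, was 1.84-fold lower (10.91 and 11.79).
RPS6, the small subunit protein phosphorylated by the S6 kinases below mTOR, read 12.06 with IWP2, 12.61 with LY294002, 12.07 with both, 12.70 with insulin and 12.91 in the control. Both arrays with IWP2 were thus the lowest for the probe used. Its further probe placed LY294002 and both inhibitors lowest instead, at 11.98 and 11.89, with 12.46 with IWP2, 12.46 with insulin and 12.64 in the control. The gene was below the control on each treated array by both probes, but which inhibitor stood lowest depended on the probe. RPL4, which lines part of the exit tunnel for the growing chain, was 1.79-fold lower with IWP2. RPS4X, RPS7 and RPS12 were 1.60-, 1.51- and 1.51-fold lower. The direction of RPS4X turned with the probe, as its further probe read 1.32 and the mean of its probes 0.32. RPS7, a dim probe, fell short of 1.5-fold under 4 alternative settings (-0.57 to -0.31).
On the other side, RPS27L had a difference of 0.74 and RPL8, a protein close to the catalytic centre, of 0.67. RPL7A (0.56), RPS15 (0.47) and RPL26 (0.45) followed below 1.5-fold.

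LY294002 compared with the control. The 2 members past 1.5-fold below the control were RPL4 and RPL22. RPL22, an RNA-binding large subunit protein that ribosomes can do without, read 11.18 with IWP2, 10.15 with LY294002, 10.93 with both, 10.44 with insulin and 10.84 in the control. The LY294002 array stood lowest, and the array with both inhibitors was within 0.09 of the control. Scaled on the median of genes outside the list, RPL22 was -0.46 with LY294002, short of 1.5-fold. RPL27A (-0.55), RPL37 (-0.55) and RPL6 (-0.40) completed the 5 lowest.
RPS25, a small subunit protein used by some viral and cellular messages for initiation at internal sites, was among the highest members at a difference of 0.83. It read 12.36 with IWP2, 12.79 with LY294002, 12.37 with both, 11.35 with insulin and 11.96 in the control. The 3 inhibitor arrays were all above the control and insulin was below it. LY294002 and insulin lay 1.44 apart on the log2 scale (2.70-fold), the widest gap between those arrays among the members. RPS27L (0.84), RPL28 (0.81), RPS2 (0.68) and RPS15 (0.65), both of the small subunit, and RPL21 (0.60) were the others at or above 1.5-fold. RPL21 was below it under 4 alternative settings (0.46 to 0.58), and RPL28 without background correction (0.37).

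IWP2+LY294002 compared with the control. RPL27A, of the large subunit, read 12.32 with IWP2, 11.96 with LY294002, 11.61 with both, 11.91 with insulin and 12.51 in the control. The array with both inhibitors was the lowest, 1.87-fold below the control, and the control was the highest. RPS6 was 1.79-fold, RPL36 1.78-fold, RPS12 1.71-fold and RPS3, which sits where the message enters the small subunit, 1.70-fold lower. RPL36 read only -0.16 when averaged with its further probe, which was detected on 1 array. RPS21, RPL14 and RPL12, a protein at the base of the stalk, were between 1.55- and 1.61-fold lower, and each was short of 1.5-fold under 1 alternative setting (-0.54 to -0.52).
RPS12 read 13.38 with IWP2, 13.67 with LY294002, 13.20 with both, 13.97 with insulin and 13.97 in the control. The 3 inhibitor arrays were below insulin and control, which read alike. Higher members were RPS27L (0.94) and RPL27 (0.61; 0.49 to 0.57 under 3 other scalings), followed by RPL41 (0.48), RPL37 (0.48) and RPL28 (0.47) below 1.5-fold.

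Insulin compared with the control. RPL28, of the large subunit, had the largest positive difference from the control among the members under the processing used. It read 6.31 with IWP2, 6.69 with LY294002, 6.35 with both, 7.18 with insulin and 5.88 in the control. The control was the lowest of the 5 arrays and insulin the highest, 2.47-fold above it. Its signal was dim for a member, at most 1.19% of the highest intensity of an array, and the gene had 1 probe. Without background correction its difference was 0.66, below the 0.91 of RPS27L with both inhibitors. RPL38, whose loss in mice impairs translation of Hox messages, differed by 0.63 for the probe used, and its further probe gave -0.30. RPL18 (0.48), RPL7A (0.46) and RPS20 (0.36) came next.
RPS23, of the decoding region of the small subunit, was 1.54-fold lower with insulin, RPS25 1.52-fold and RPL27A 1.52-fold. Under cyclic loess all 3 were below 1.5-fold (-0.57, -0.55 and -0.56). RPL9 (-0.49) and RPS21 (-0.48) completed the 5 lowest. RPL29 was detected with insulin only (5.56). Against the control, where it was not detected, this puts it at least 1.18-fold higher.

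**Figure D3:**
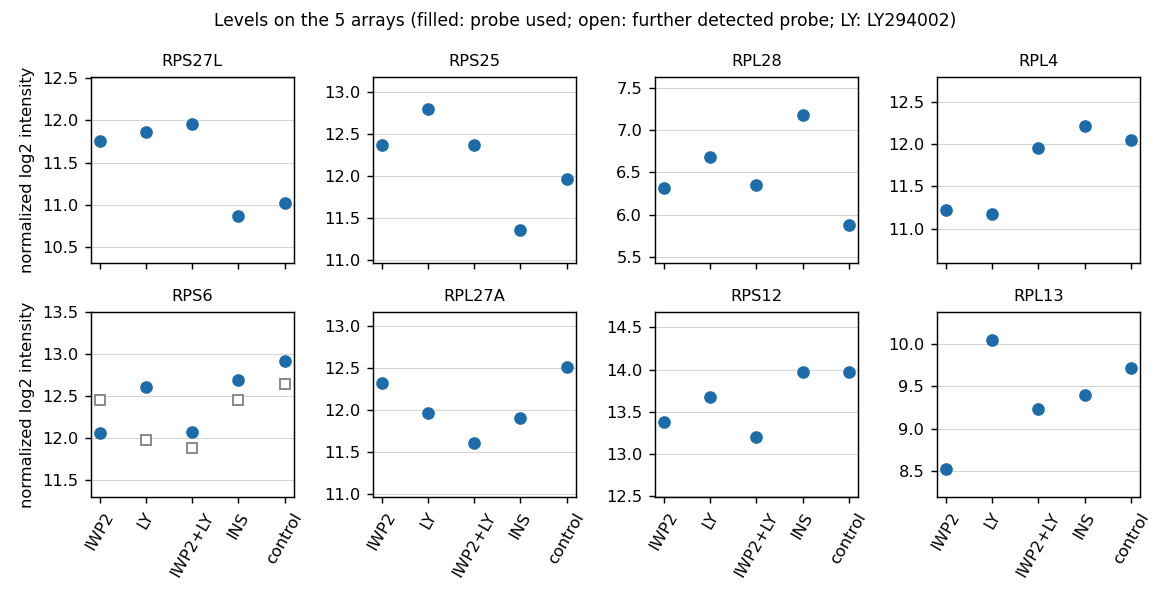
Normalized log2 intensity of 8 ribosomal protein genes on the 5 arrays, 1 point per array, with every vertical axis spanning the same log2 width. RPS27L (10.87 to 11.96) was higher on the 3 inhibitor arrays than with insulin and in the control, RPL4 (11.18 to 12.22) was 0.84 and 0.88 below the control with IWP2 and LY294002 alone and 0.11 below it with both, and the 2 probes of RPS6 order the inhibitor arrays differently.

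Adding one inhibitor to the other gave differences that do not use the control array. Against IWP2 alone, both inhibitors had a member median of 0.01, with 5 members at least 1.5-fold higher (12.5% of all genes) and 3 lower (12.3% of all genes). RPL7 (0.83) and RPL4 (0.73) were the highest, and RPL7A (-1.12), RPL12 (-0.87) and RPL27A (-0.71) the lowest, of which RPL7A passed 2-fold (2.96% of all genes were 2-fold higher and 3.45% lower). Against LY294002 alone, the median was -0.19, with 3 members higher (17.1% of all genes) and 8 lower (15% of all genes), RPL36 (-0.94) and RPS3 (-0.84) lowest. RPL37, a dim probe, was 2-fold higher there (5.92% of all genes higher, 4.37% lower). LY294002 against insulin gave a median of 0.13, with 13 members higher (24.8% of all genes) and 3 lower (23.5% of all genes). After RPS25, the highest there were RPS27L (1.99-fold), RPL23A (1.74-fold) and RPL36AL (1.72-fold), and RPL4 was the lowest (-1.04). RPS25 and RPL4 passed 2-fold (11.9% of all genes higher, 12.7% lower).

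The difference a member showed with one inhibitor was hardly related to its difference when that inhibitor was added to the other. Across the 68 members, the difference of IWP2 from control and that of both inhibitors from LY294002 had a Pearson r of 0.10 (Spearman rho 0.08), against 0.34 (0.32) across all 7110 genes. For LY294002 from control and both inhibitors from IWP2, r was -0.03 (rho -0.03) over the members and 0.42 (0.37) over all genes. Each pair of differences shares no array, but all arrays were normalized together, and genes are not independent points. The members also varied less, with a median span over the arrays of 0.61 against 1.03 for all genes. A narrow range can itself lower r, so the contrast with all genes cannot be read as a different response.

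By the probe used, RPS27L was the only one of the 5 paralogs in the list past 1.5-fold against the control. RPS27L, which p53 is known to induce, read 11.76 with IWP2, 11.86 with LY294002, 11.96 with both, 10.87 with insulin and 11.02 in the control. All 3 inhibitor arrays were above both others, by 1.67-, 1.79- and 1.92-fold over the control. Its parent RPS27 read 13.83, 13.54, 13.67, 13.73 and 13.54 in that order of arrays, a span of 0.29, while a further probe of RPS27 read 0.69 below the control with both inhibitors. The summed cardiomyocyte and liver marker signals given above separated the same 3 arrays from the other arrays, and their part in RPS27L was not tested. RPS27L had a further probe that was not detected on any array, so no second reading was available. RPL26L1, a paralog outside the naming pattern given further below, also read higher on the 3 inhibitor arrays than on the other arrays.
RPL39L, a paralog best known from testis, was highest with LY294002 by both of its probes. The probe used read 9.85 with IWP2, 10.26 with LY294002, 9.64 with both, 9.90 with insulin and 9.80 in the control. The further probe read 8.62, 9.48, 8.35, 8.56 and 8.25 in that order, with LY294002 again on top and a wider span of 1.23. Its parent RPL39, at the exit tunnel, ranged only from 11.58 to 11.86.
RPL3L, the muscle paralog of RPL3, was not detected on any array, at 4.42 to 4.73. Cardiomyocyte markers were strong on 3 of the arrays, but an undetected probe does not show that the RNA of RPL3L was absent. The lowest detected signals of the arrays were 5.27 to 5.49. RPL3 itself, at the peptidyl transferase centre, read 13.04 with IWP2, 13.29 with LY294002, 13.10 with both, 13.19 with insulin and 13.46 in the control.
RPL36AL read 10.08, 10.89, 10.30, 10.11 and 10.46 in the same order by the probe used, and its further probe gave 10.35, 10.34, 10.54, 9.67 and 10.50. The 2 probes put different arrays on top. Its parent RPL36A, RPL10 and RPL10L were not detected on any array. RPL10 is a core protein of the large subunit, and its 2 undetected probes say nothing on whether its RNA was there.

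The stalk proteins, which recruit translation factors to the large subunit, stayed close to the control by the probes used. RPLP1 read 13.72 with IWP2, 13.45 with LY294002, 13.62 with both, 13.37 with insulin and 13.41 in the control. RPLP2 read 14.25, 14.18, 13.91, 14.21 and 14.05 in that order. Their spans were 0.36 and 0.34, where the middle span of the 21 members above 50% of an array's highest intensity, both of them included, was 0.44. Both dimmer further probes of RPLP1 had the opposite sign with IWP2 (-0.32 and -0.19, against 0.31 by the probe used). The same held with both inhibitors (-0.55 and -0.27, against 0.21). With LY294002 they gave 0.02 and -0.07, against 0.04, and with insulin -0.02 and -0.15, against -0.04. The direction for RPLP1 with IWP2 and with both inhibitors thus depended on the probe.

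The small spans were checked against saturation of the signal, because many member probes lay near the top of the scale. No array had probes tied at its highest intensity, which ran from 22248 to 23418. RPS29 reached 91.8%, RPS19 91.3% and RPLP2 90.9% of the highest intensity of an array, and RPL41 and RPS10 followed with 87.6% and 86.3%. RPS29, the brightest, had the smallest span of the detected members, with 19427 intensity units with IWP2, 20207 with LY294002, 19985 with both, 21185 with insulin and 20728 in the control. Another RPS29 probe of the same brightness (91.4%) spanned 0.38. RPS19, mutated in Diamond-Blackfan anemia, had nearly the same highest value but still ranged from 12633 with both inhibitors to 21056 with insulin. The 21 members that exceeded 50% of an array's highest intensity had a median span of 0.44 on the log2 scale. The 42 other genes that exceeded it on at least 1 array had 1.197. At 20% to 50% the medians were 0.60 for 20 members and 1.07 for 176 other genes, and at 5% to 20% they were 0.73 for 18 members and 1.105 for 1030 other genes. Under 5% they were 0.89 for 9 members and 1.03 for 5794 other genes. Median spans of members thus fell with brightness, and those of other genes did not. Each gene was placed by its highest array, so a wide span can itself put a gene in a bright group. Among the 42 other genes spans reached 7.08. The other genes are therefore no measure of saturation in the members, whose part in the narrow spans was not tested. None of the 3 members above 90% passed 1.5-fold against the control. Leaving them out thus could not change the counts past 1.5-fold and is no check of saturation.

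**Figure D4:**
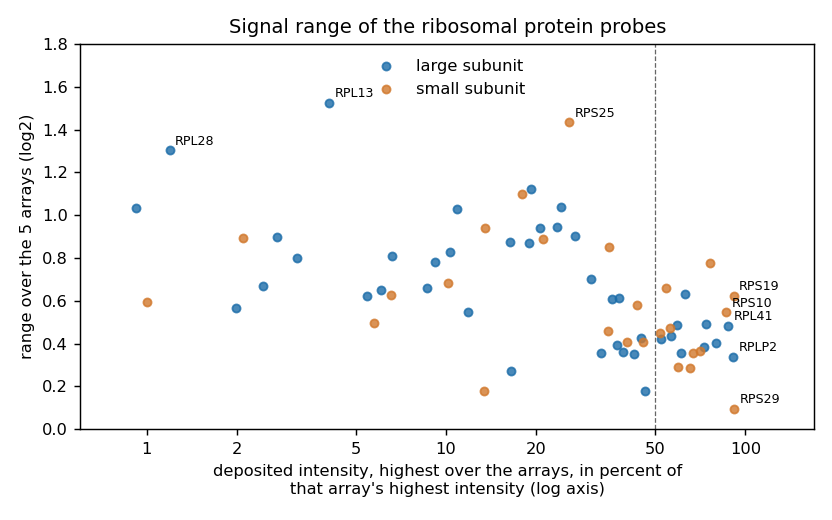
Span of each ribosomal protein gene over the 5 arrays (log2 of highest over lowest) against its highest deposited intensity in percent of the highest on that array (log axis), for 68 genes. Genes right of the dashed line at 50% had a median span of 0.44, and the widest spans (RPL13, RPS25 and RPL28) lay left of it.

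Further probes of the same gene gave the only repeat reading within an array. For 23 members, 32 further probes were detected on all 5 arrays. The probe used and the further probe had the same sign of difference from the control in 16 of 32 pairs with IWP2, 17 with LY294002, 15 with both inhibitors and 22 with insulin. The middle gap between the readings was 0.46, 0.28, 0.33 and 0.25 on the log2 scale, at or above the middle size of the difference itself (0.21, 0.11, 0.18 and 0.25). Differences of the middle size in a single member were thus no larger than the gap between its probes.
RPS4X, the X-linked copy of a small subunit protein, showed the widest conflict with IWP2. The probe used read 10.85 with IWP2, 11.79 with LY294002, 11.33 with both, 11.16 with insulin and 11.53 in the control. The further probe read 10.49, 10.62, 10.96, 10.40 and 9.17 in that order, with the control lowest by at least 1.23. Its readings for IWP2 minus control were -0.68 and 1.32.
RPS24 gave the widest gap of all, with insulin. Its probe used stayed between -0.31 and 0.10 of the control, while a dim further probe, assigned to another RefSeq transcript, read 1.26 with IWP2, 1.804 with LY294002, 0.57 with both and 2.03 with insulin. Of the members past 1.5-fold, few had a further probe. With both inhibitors, RPS6, RPL14 and RPL12 were at least 1.5-fold lower by 2 probes each, at -0.84 and -0.75, -0.66 and -1.17, and -0.63 and -0.85. With LY294002, RPS15 was higher by 2 probes (0.65 and 0.88). With IWP2, the 2 members with a further probe detected throughout, RPS6 and RPS4X, did not pass by it, nor did RPL38 with insulin.

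**Figure D5:**
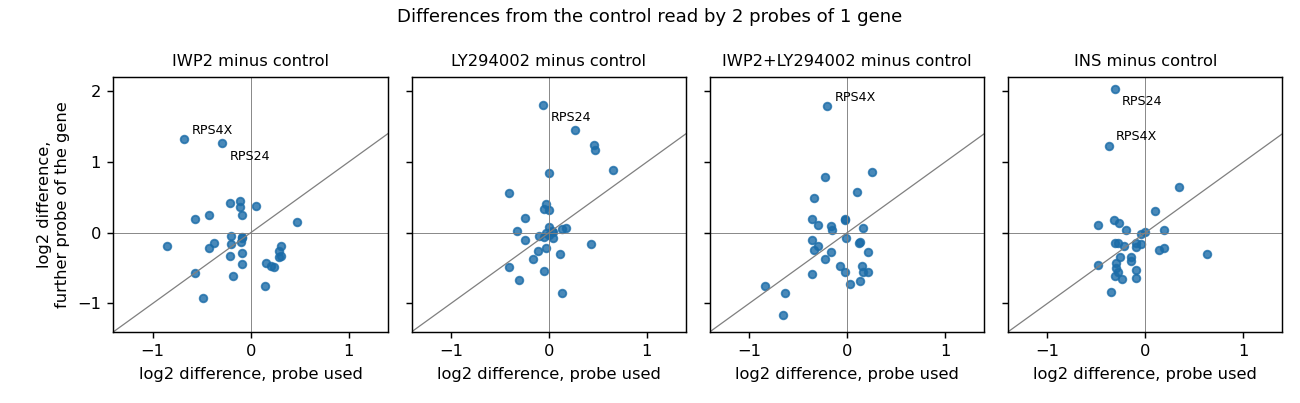
Log2 difference from the control read by a further probe of a ribosomal protein gene (vertical axis) against that by the probe used (horizontal axis), for 32 probe pairs of 23 genes in each comparison. Points on the diagonal would agree; the signs match in 16, 17, 15 and 22 of the 32 pairs, and RPS4X and RPS24 lie farthest from the line.

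Other genes of translation were set beside the members. Of 19 genes for elongation factors and other TOP messages, 17 were detected on both arrays of each inhibitor comparison. Past 1.5-fold, 1 was higher and 2 lower with IWP2, 1 and 4 with LY294002, 1 and 2 with both inhibitors and, of 16, 3 and 1 with insulin. The shares of all genes to hold these against, higher and lower, are 17.6% and 18.3%, 21.4% and 21.2%, 25.1% and 21.3%, and 9.39% and 9.25%, and the 4 of 17 lower with LY294002 are near theirs. The medians of this list were 0.08 with IWP2, -0.29 with LY294002, -0.24 with both and 0.03 with insulin, with 5 genes above and 11 below the control with LY294002. PABPC1, the poly(A)-binding protein, read 10.66 with LY294002, 10.25 with both and 12.25 with insulin, against 11.49 in the control. EIF4B, an initiation factor that is an S6 kinase substrate, differed by -1.02 with LY294002. In the other direction, HNRNPA1, which was dim, differed by 0.78 with LY294002 and EIF3L by 0.67 with both inhibitors. With insulin EEF1B2 differed by -0.63, opposite to PABPC1. The medians of the 25 initiation factor genes detected (0.10, -0.06, -0.15 and 0.00 in the order IWP2, LY294002, both, insulin) and of the ribosome biogenesis genes (-0.02, 0.16, 0.07 and 0.07) were smaller in size with each of LY294002 and both inhibitors.
The proteins of the mitochondrial ribosome, 76 genes on the array, had larger median differences with LY294002 and with both inhibitors than the cytosolic ones. Their medians were 0.18 with IWP2 (75 genes), 0.57 with LY294002 (74 genes), 0.37 with both (75 genes) and -0.20 with insulin (75 genes). Past 1.5-fold above and below the control stood 36 and 1 of them with LY294002, against 21.4% and 21.2% of all genes, and 1 and 12 with insulin, against 9.39% and 9.25%. With both inhibitors they were 32 and 5, against 25.1% and 21.3%. With IWP2 they were 13 and 3, against 17.6% and 18.3%, so that the 13 of 75 higher were near the share of all genes. The arrays on which their median stood above the control were those with the stronger cardiomyocyte marker signal. Among these arrays the order differed. LY294002 had the largest median (0.57) but the lowest summed cardiomyocyte signal (63454, against 72658 with IWP2 and 72801 with both). The part of those cells was not tested.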

How the data were processed

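RNA of 5 cultures, 1 per condition, was measured on Illumina expression BeadChips after biotin labelling, per the labels' protocols. The deposited intensity values are not normalized and carry a detection p-value for each of 47299 probes, per the file headers. The authors also deposited processed values on the log2 scale, by steps not given in the sources used here. Within an array these rank probes as the intensities do (Spearman rho 1.000). Intensities were background-corrected (normexp, from the detection p-values), quantile-normalized and moved to log2 with an offset of 16 (neqc, limma 3.58.1, R 4.3.3), then summarised with Python 3.11.15 and pandas 2.3.3. Differences between dim values are understated by the offset. The platform annotation gave 30106 probes 1 symbol, 8 several and 17185 none. With 1 array per condition no p-value was computed, and the number of arrays limits the precision. All comparisons with the control share its array. A gene had to be detected on both arrays (p-value under 0.01). Genes were named as the 5 highest and 5 lowest members per comparison with the control, the paralogs with their parents, RPLP1, RPLP2 and RPS4X, members past the threshold on a further probe of opposite sign, the 5 brightest, and up to 4 genes of each other list; others (RPS7, RPL21, RPL14, RPL12, RPL7 and RPL23A) were added after their values were seen. Members and lists were chosen with earlier results of these data known. The code was tested on simulated arrays.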

Additional observations from a re-analysis of the deposited data

Results flagged for a closer look

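RPL4, a large subunit protein with 1 probe, moved in opposite directions when an inhibitor was added alone or on top of the other. It read 11.22 with IWP2, 11.18 with LY294002, 11.95 with both inhibitors, 12.22 with insulin and 12.06 in the control. IWP2 without LY294002 gave a difference of -0.84 and with LY294002 present of 0.77. LY294002 without IWP2 gave -0.88 and with IWP2 present 0.73. RPL4 was the only member past 1.5-fold in opposite directions in this way among the 68 detected on all 5 arrays. How often genes outside the list did so is not given here, so RPL4 cannot be called unusual. The difference between these effects was not tested, since each rests on 1 array per condition.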

How the results depend on the processing

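Member medians stayed within 0.1 of the reported value under 8 alternative settings and 1 more chosen after seeing the data (5 paralogs left out), except with LY294002, where the median of 0.03 became 0.19 under 75th percentile scaling and 0.42 when arrays were scaled on the median of the genes outside the list. These scalings moved the median of all genes there by over 0.1, to -0.09 and 0.14. For LY294002, that median scaling gave 22 members higher and 1 lower, and the mean of detected probes 10 higher. For IWP2, leaving out the paralogs gave 1 higher. For both inhibitors, 1 was higher under 75th percentile scaling, cyclic loess, median scaling and without the paralogs. For insulin, 1 was higher under 75th percentile and median scaling, and 0 were lower under cyclic loess. RPS4X with IWP2 became 0.32 as the mean of its probes. Of 231 recomputed single differences past 1.5-fold, 203 stayed past it, 27 kept their sign below it and 1 changed sign. The cause was not tested, apart from fewer genes where paralogs were left out. Counts over all genes moved too: without background correction 813, 962, 1241 and 299 were at least 1.5-fold higher with IWP2, LY294002, both and insulin, beside 1483, 1671, 1969 and 815 as reported. RPL28 with LY294002 and RPS7 with IWP2, both dim, became 0.37 and -0.31 without background correction. No paired analysis was possible because each condition has 1 array.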

Other observations

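FAU and 3 genes with ribosomal protein names that fall outside the naming pattern were read too, whether or not their products are part of the ribosome. RPL26L1, a paralog of RPL26, read 10.24 with IWP2, 10.85 with LY294002, 10.52 with both inhibitors, 9.14 with insulin and 9.86 in the control. The 3 inhibitor arrays were above the control and insulin was below it, with differences of 0.38, 0.99, 0.66 and -0.72. Its parent RPL26 differed from the control by 0.45, 0.56, 0.25 and 0.13 in the same order. FAU, which encodes a small subunit protein fused to a ubiquitin-like domain, differed by -0.18, 0.35, 0.09 and -0.27. RPL7L1 stayed within 0.30 of the control on all 4 arrays, and RPL22L1 was not detected on any array.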
